A study of Homo sapiens with 24 samples.

Results

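Mitochondrial ribosomal proteins are the nuclear-encoded proteins of the ribosome that works inside mitochondria. Members were taken by symbol: every protein-coding gene whose symbol is MRPL (large subunit) or MRPS (small subunit) followed by a number and at most a short suffix, with mean FPKM (fragments scaled by transcript length and library depth) of 0.5 or more across all 24 libraries. This gave 78 genes, 49 MRPL and 29 MRPS, of 58381 gene IDs in the deposited table and 14228 that were tested. Counts by subunit follow the symbol, although the products of MRPS18A and MRPS36 are not small-subunit proteins, as described further on. All 78 genes that matched by symbol also passed the level filter, so no member was lost to it, and 80 MRPL or MRPS pseudogenes were left out.

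The libraries came from HaCaT, an immortalised, non-malignant human keratinocyte line. Per the labels, 3 clonal lines transduced with an empty vector and 3 transduced with hsa-miR-186, a microRNA, were each kept in medium with 0 or 100 nM inorganic arsenic (iAs), and total RNA was taken at 12 and 29 weeks. This makes 8 groups of 3 libraries: vector at 0 nM and at 100 nM and miR-186 at 0 nM and at 100 nM, each at week 12 and at week 29. The clones of the 2 constructs are different lines, so a difference between constructs also carries the difference between clones, and which clone a replicate number stands for is not stated in the labels. MIR186 was listed at 0 in all 24 libraries, which were made from poly(A) RNA and do not measure a mature microRNA, while its host gene ZRANB2 had group means from 24.8 to 45.3 FPKM.

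The mitochondrial ribosome translates the messages of the mitochondrial genome, all of which encode subunits of the respiratory chain and of ATP synthase. Its ribosomal RNAs are made in the mitochondrion, whereas its proteins are encoded in the nucleus, translated in the cytosol and imported. Some of the proteins have counterparts in bacterial ribosomes and others exist only in mitochondrial ones. In keratinocytes, as in other cells, the assembled ribosome sits at the inner membrane, where its products are inserted.

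Short windows of some members' start regions are shown because 38 of the 69 with such a window hold 1 or both of the sets of letters described here. The share of tested genes with 1 or both was not counted. RefSeq start windows of GRCh38.p14, from 250 bases before to 50 bases after the start, were matched by symbol for 69 of the 78 members. The letters AAGATGGCG, the core read by the zinc finger factor YY1, were searched on both strands and were in 13 of 69 windows (18.8%), against 4.12% of the windows of 9732 tested protein-coding genes and 1.85% of 27305 windows of all genes. Of the 14 matches, 10 lay within 40 bases after the start and 12 ran on the gene's own strand. In the lines below the match is in capitals, each window is 30 bases and is written 5′ to 3′ on the gene's strand. The windows are examples with a match on the gene's own strand within 40 bases after the start. Other matches, some of this kind and some farther away or on the opposite strand, are not shown.
MRPL22 (chr5:154941093-154941122, plus strand): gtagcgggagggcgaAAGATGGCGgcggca
MRPL42 (chr12:93467512-93467541, plus strand): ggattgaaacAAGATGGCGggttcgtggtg
MRPL46 (chr15:88467361-88467390, minus strand): gggagaacgaAAGATGGCGgcgcccgtaag
MRPL50 (chr9:101398576-101398605, minus strand): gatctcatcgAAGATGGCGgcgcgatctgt
MRPS10 (chr6:42217833-42217862, minus strand): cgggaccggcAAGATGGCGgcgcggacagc
MRPS18A (chr6:43687763-43687792, minus strand): taggtttttgAAGATGGCGgccctcaaggc
MRPS24 (chr7:43869479-43869508, minus strand): cgcttggcccAAGATGGCGgcctccgtgtg

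A further set of letters, CCGGAAG, is the core read by ETS family factors, among them GABPA, a known activator of nuclear genes for mitochondrial proteins. It was in 29 of the 69 windows (42.0%), against 20.3% of the windows of tested genes and 10.7% of all windows, and 4 members (MRPL38, MRPL52, MRPS10 and MRPS18A) held it together with AAGATGGCG. The NRF1 letters GCATGCGC were in 6 members' windows (8.70%, against 5.55% of tested genes), the E-box CACGTG in 6 (8.70% against 10.1%) and TATAAA in 2 (2.90% against 5.83%). Matches were counted on both strands, and a match is a description of the letters and not a measured binding site. The windows below are all from members that rose with time in miR-186 clones at 100 nM, described further on. Members that held the letters and did not rise are not shown, and the counts for both are given further on. A match is in capitals in each window, as CTTCCGG where it lies on the opposite strand. The MRPS22 window also holds CTTCCGG in lower case, a further match.
MRPL47 (chr3:179604659-179604688, minus strand): ggcttgagacgCCGGAAGtgacgctatcgt
MRPL3 (chr3:131502985-131503014, minus strand): tgtaaaacgcaCCGGAAGtgggtccggcgg
MRPL48 (chr11:73787800-73787829, plus strand): aatttcagaagCTTCCGGaactaaaatgat
MRPL58 (chr17:75012651-75012680, plus strand): ggaagcgcccgCCGGAAGcagtcgcaagac
MRPS22 (chr3:139343896-139343925, plus strand): tctataagggcCCGGAAGacttccggccct
MRPL40 (chr22:19432523-19432552, plus strand): ggggcgcacgcCCGGAAGcggcgagggtag
MRPS10 (chr6:42217865-42217894, minus strand): ccgctgtaaccCCGGAAGcaatcctgagag

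In these keratinocytes the members were expressed well above most genes. The median of the members' mean levels was 41.6 FPKM for MRPL genes and 35.4 FPKM for MRPS genes, against 10.2 FPKM over all genes tested. Of the 78 members, 71 were over 10 FPKM. FPKM is scaled by length and depth, but levels still carry the GC content of a gene and reads shared with overlapping genes or copies, so the order between members is approximate. MRPL51 (151 FPKM), MRPL33 (151 FPKM) and MRPL3 (116 FPKM) stood highest, and in every library the top member was one of these 3, MRPL33 in 12 libraries, MRPL51 in 10 and MRPL3 in 2. MRPL3 is the counterpart of bacterial L3, a core protein that contacts the large ribosomal RNA, and MRPL51 is a protein of the mitochondrial large subunit without a bacterial counterpart.

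The lowest members were MRPL41 (1.64 FPKM), which also has the most GC-rich transcripts (72.0%), MRPL23 (3.68 FPKM) and MRPL53 (5.88 FPKM), all of the large subunit. MRPL23 is the counterpart of bacterial L23, which stands at the mouth of the exit tunnel. Levels of the members, from 1.64 to 151 FPKM, are levels of messages, and no protein was measured. MRPL43, MRPL16 and MRPL57 varied least over the 24 libraries, with SDs of 0.16 each on the log2 scale. MRPL43 lay between 26.4 and 39.0 FPKM in every library. The greatest SDs were those of MRPL23 (0.66), MRPL4 (0.66) and MRPL54 (0.58), against a median of 0.31 over the 78 members and 0.36 over all genes tested.

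Added up within a library, the members ran from 2508 to 4054 FPKM. In vector clones at 0 nM the sum was 3794 ± 169 FPKM at week 12 and 3817 ± 127 FPKM at week 29 (SD, n = 3 in each group). With 100 nM iAs the vector sums were 3112 ± 503 and 3576 ± 349 FPKM. For miR-186 clones week 12 gave sums of 3217 ± 166 FPKM without iAs and 2802 ± 257 FPKM with it, and week 29 gave 3770 ± 274 and 3768 ± 233 FPKM. The 3 libraries of miR-186 clones at 100 nM in week 12 held 2916, 2508 and 2982 FPKM, all below the 3 libraries of the same clones and dose at week 29, at 3499, 3905 and 3900 FPKM. In a bulk library fewer cells that express a gene and less RNA per cell cannot be told apart.

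**Figure D1:**
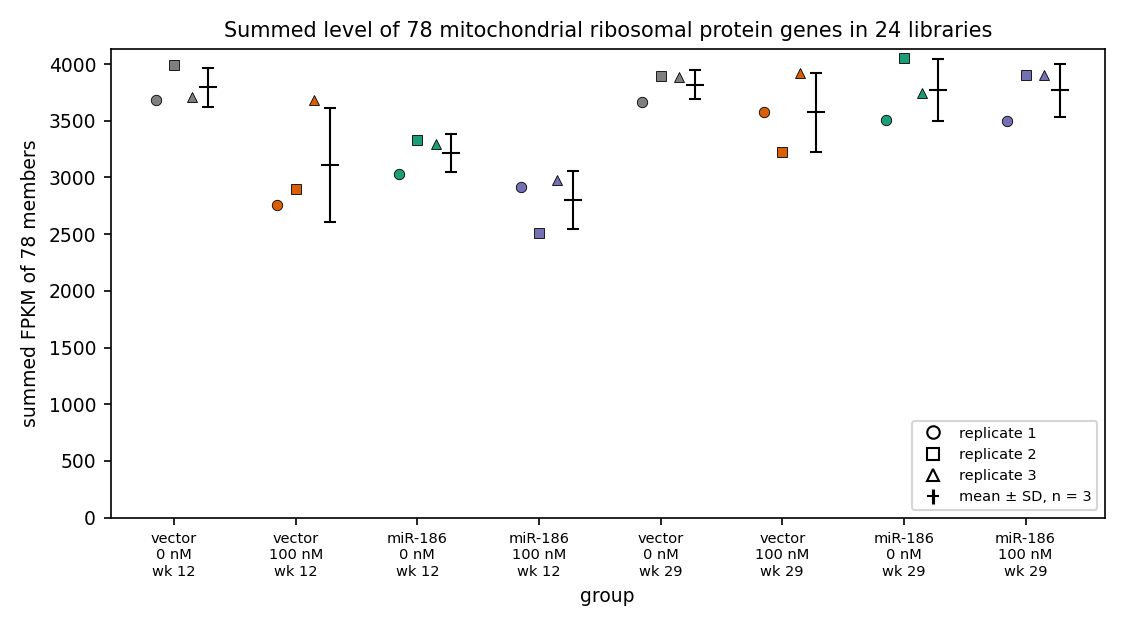
Summed FPKM of the 78 members in each of the 24 libraries (points; circle, square and triangle are replicates 1, 2 and 3), with the mean and SD of each group of 3; the vertical axis starts at 0. The lowest library, at 2508 FPKM, is replicate 2 of miR-186 clones at 100 nM in week 12, and the highest, at 4054 FPKM, is replicate 2 of miR-186 clones at 0 nM in week 29.

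The members' broadest change was with time in miR-186 clones kept in arsenic. Between week 12 and week 29 at 100 nM, 25 of the 78 members rose and 0 fell by limma at an adjusted p under 0.05, with log2 changes from 0.39 to 1.04. Over all genes tested, 7.11% rose and 5.07% fell in the same comparison, and the members' median change was 0.36, against 0.02 over all genes. By symbol, 16 of 49 MRPL genes (32.7%) and 9 of 29 MRPS genes (31.0%) rose. In limma 38 members (48.7%), each of them higher, had an unadjusted p under 0.05, against 17.6% of all genes higher and 14.3% lower. For 41 members all 3 libraries of week 29 lay above all 3 of week 12, and for 0 members below. Of all genes tested, 18.1% lay wholly above in this way and 14.9% wholly below.

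In that fit the calls depended on replicate 2 of the week 12 group. Without it limma called 0 of the 78 members, with 26 higher at an unadjusted p under 0.05, 66 of 78 members above 0 and a median change of 0.30. Over all genes tested the calls went from 1011 higher and 721 lower to 17 and 51. Without replicate 1 or 3 of week 12 it called 21 or 24, and without replicate 1, 2 or 3 of week 29 it called 12, 20 or 9. In a fit on only these 2 groups limma called 0, with 33 higher and 1 lower at an unadjusted p under 0.05, and keeping genes of low level in the fit left 14. Replicate 2 of week 12 was the lowest of all 24 libraries for 35 of the 78 members and for 22 of the 25 that rose. It also had the lowest estimated depth of the series, 0.825 of the median library, and the most genes at 0.5 FPKM or more, 14588, against a median of 14051 over the libraries. The estimated depths of the others were 0.871 and 0.834 at week 12 and 0.896, 1.08 and 1.07 at week 29. The part of depth in the result was not tested.

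Among proteins with a bacterial counterpart, the greatest change was that of MRPL47, the counterpart of L29 beside the exit tunnel (chromosome 3, 179588285 to 179604654, minus strand, GRCh38). Its FPKM were 41.6, 26.8 and 46.6 at week 12 and 76.9, 76.2 and 78.7 at week 29. The 3 later libraries lay within 3 FPKM of each other and above all 3 earlier ones, a log2 change of 1.04 ± 0.20 (SE), or 2.06-fold, with an adjusted p of 0.00656 in limma. MRPL15, the counterpart of L15, stood at 78.7, 49.2 and 76.6 FPKM and then at 119, 113 and 130 FPKM. Its groups did not overlap either, with a change of 0.85 ± 0.17 (adjusted p = 0.00885, limma). MRPL3 went from 90.0, 62.8 and 94.3 FPKM to 132, 145 and 151 FPKM (0.81 ± 0.18, adjusted p = 0.0121, limma).

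MRPL35, the counterpart of L35, rose from 27.4, 22.2 and 37.5 FPKM to 50.3, 50.7 and 62.2 FPKM (0.92 ± 0.20, adjusted p = 0.0121, limma). MRPL18, the counterpart of L18 that binds 5S RNA in bacteria, rose from 47.9, 38.4 and 54.5 FPKM to 62.7, 83.5 and 74.3 FPKM (0.65 ± 0.14, adjusted p = 0.0127, limma). MRPL19, the counterpart of L19, rose from 33.1, 23.9 and 34.0 FPKM to 49.9, 43.3 and 53.8 FPKM (0.69 ± 0.17, adjusted p = 0.0166, limma). In each of these 3 genes the lowest of all 24 libraries was replicate 2 of week 12. The other large-subunit proteins of this kind that rose were MRPL1 (0.87 ± 0.26), MRPL9 (0.60 ± 0.18), MRPL21 (0.53 ± 0.17) and MRPL22 (0.43 ± 0.13).

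Large-subunit proteins found only in mitochondrial ribosomes rose as well. MRPL48 went from 48.1, 33.8 and 39.97 FPKM to 70.8, 75.2 and 68.3 FPKM (0.82 ± 0.17, adjusted p = 0.0115, limma). MRPL58, also known as ICT1, is a peptidyl-tRNA hydrolase built into the large subunit, related to release factors and known to rescue stalled ribosomes. It went from 35.6, 25.3 and 34.1 FPKM to 42.5, 52.0 and 55.6 FPKM (0.66 ± 0.15, adjusted p = 0.0128, limma). MRPL46 (0.69 ± 0.17), MRPL39 (0.63 ± 0.18), MRPL45 (0.52 ± 0.15) and MRPL40 (0.39 ± 0.12) also rose. MRPL45 helps to hold the ribosome at the inner membrane.

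In the small subunit, MRPS5, the counterpart of S5, had the smallest p. Its FPKM were 32.6, 29.6 and 40.7 at week 12 and 49.8, 48.1 and 56.8 at week 29, without overlap (0.59 ± 0.12, adjusted p = 0.0111, limma). MRPS22, a mitochondria-specific protein in which mutations cause a mitochondrial disease, went from 58.6, 40 and 64.6 FPKM to 94.6, 82.8 and 97.0 FPKM (0.77 ± 0.18, adjusted p = 0.0163, limma). The largest change in this subunit was that of MRPS10, the counterpart of S10, from 22.6, 14.8 and 24 FPKM to 38.6, 31.4 and 48.1 FPKM (0.94 ± 0.25, adjusted p = 0.0241, limma). MRPS33 (0.69 ± 0.17), MRPS15 (0.59 ± 0.15), MRPS7 (0.56 ± 0.15), MRPS28 (0.51 ± 0.17) and MRPS9 (0.42 ± 0.12) completed the rises, with MRPS18C.

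The MRPS18 genes are 3 paralogs of bacterial S18: the products of MRPS18B and MRPS18C sit in the small subunit, and that of MRPS18A sits in the large subunit in spite of its symbol. MRPS18C went from 18.0, 12.2 and 20.0 FPKM to 26.8, 29.8 and 32.1 FPKM (0.83 ± 0.22, adjusted p = 0.0241, limma). MRPS18B went from 58.5, 51.5 and 67.1 FPKM to 76.7, 71.9 and 85.9 FPKM, also without overlap, but its change of 0.41 ± 0.23 did not pass (adjusted p = 0.221, limma). MRPS18A stood at 19.4, 22.3 and 26.9 FPKM and then at 17, 32.5 and 30.3 FPKM, with overlapping groups and a change of 0.17 ± 0.30. The difference between the paralogs was not tested.

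**Figure D2:**
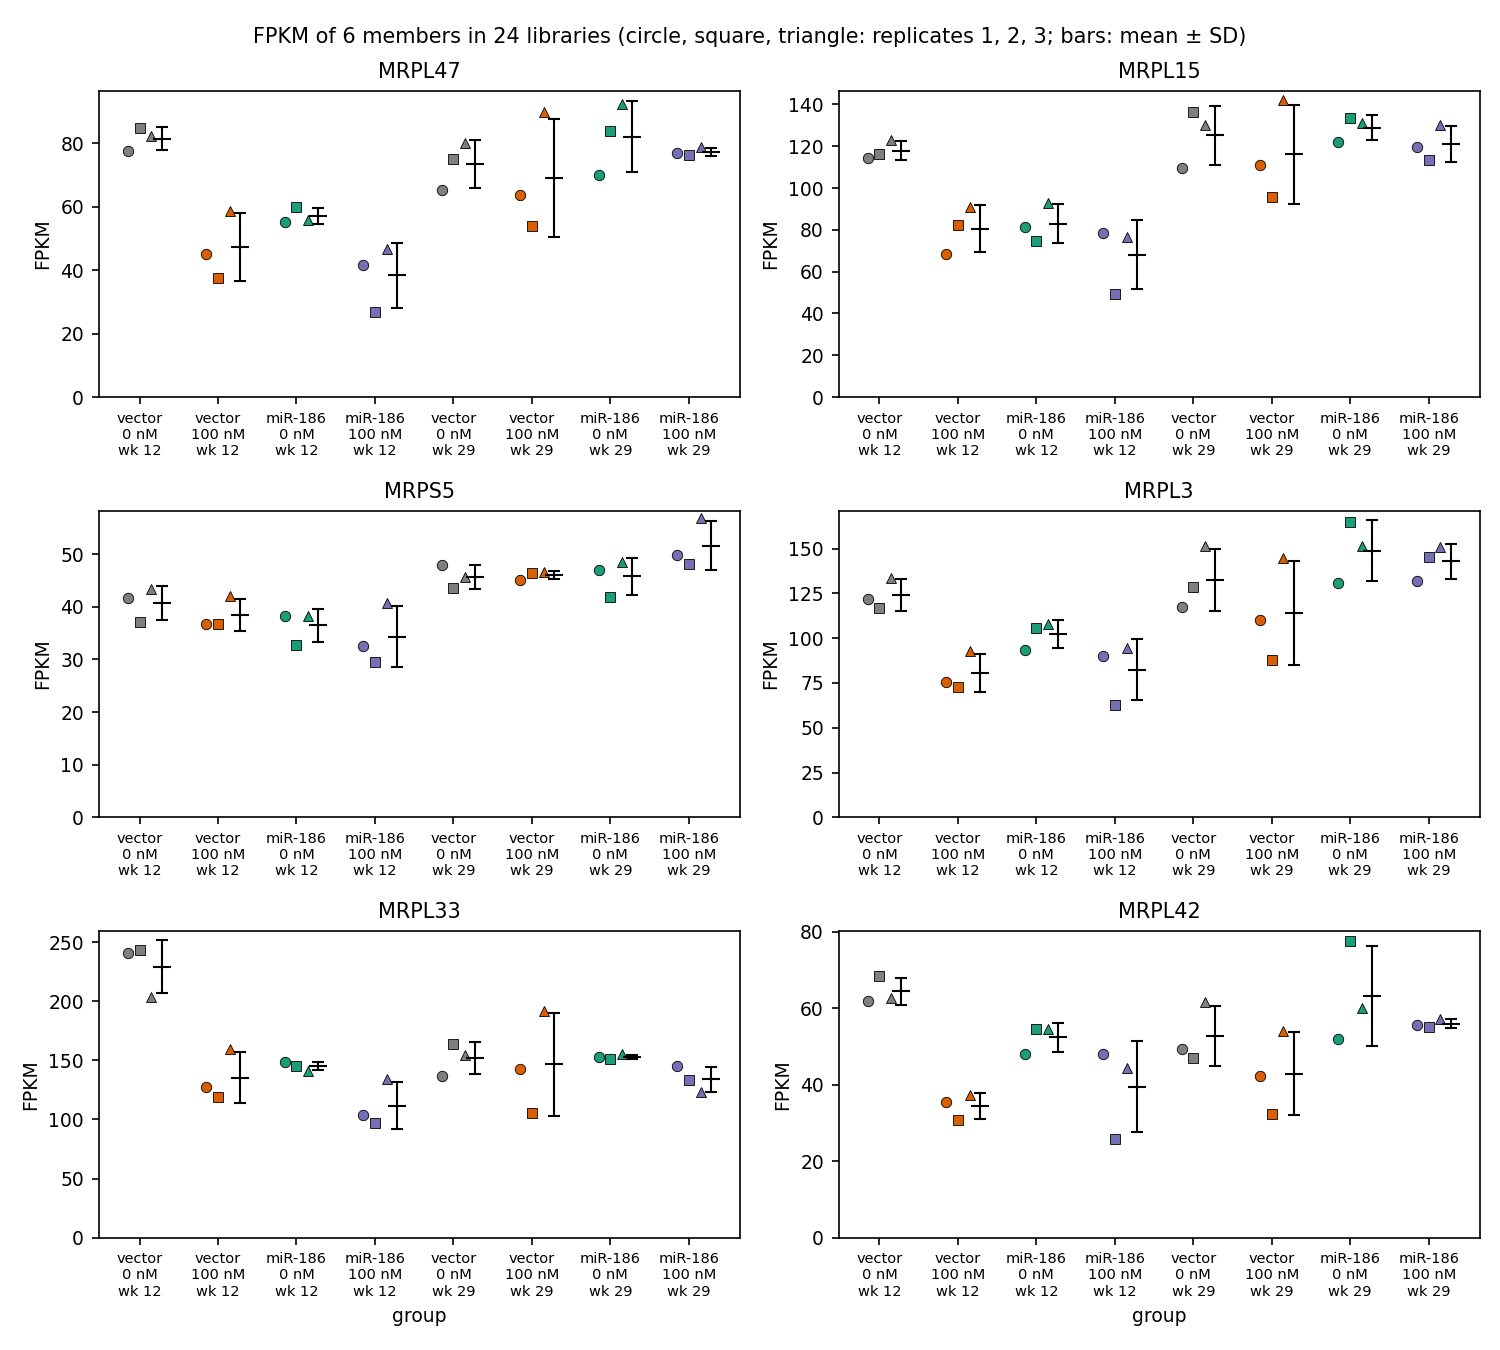
FPKM of MRPL47, MRPL15, MRPS5, MRPL3, MRPL33 and MRPL42 in the 24 libraries (points by replicate; bars are the mean and SD of 3 libraries; each vertical axis starts at 0). In miR-186 clones at 100 nM, the 3 libraries of week 29 lie above those of week 12 for MRPL47, MRPL15, MRPS5 and MRPL3, and in vector clones at week 12 the libraries at 100 nM lie below those at 0 nM for MRPL33 and MRPL42.

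The same 25 members were followed between weeks in the other clones and doses, which used other libraries. Those libraries entered the choice of the 25 through the spread shared in the fit. The miR-186 libraries at 0 nM also came from the same clonal lines as those at 100 nM. In vector clones at 100 nM all 25 lay above 0 between week 12 and week 29, with a median change of 0.32 and a range from 0.13 to 0.66. Of all 78 members 58 lay above 0 there, and of 14228 genes 6873. Of the 25, 11 had an unadjusted p under 0.05 and 0 passed, while 0.183% of all genes tested passed in that comparison. In miR-186 clones at 0 nM all 25 also lay above 0, with a median of 0.34 and 1 past the threshold. Above 0 there were 54 of all 78 members and 7898 of 14228 genes. Across 14208 genes the correlation of transcript GC content with change was r = −0.49 and −0.50 in these 2 comparisons. The part of GC content in the direction of the 25 was not tested. In vector clones at 0 nM, 14 of 25 lay above 0 with a median of 0.07, and 0 passed (0 at an unadjusted p under 0.05). Of all 78 members 44 lay above 0 in those clones, and of 14228 genes 7126. The week effect at 100 nM was then compared between constructs over all 78 members, since the 25 were chosen on the libraries of this comparison. It was higher in miR-186 clones in 64 of 78 by a median of 0.22, but 0 members and 0 other genes passed (0.0% of genes tested, with 0 members and 2.54% of all genes at an unadjusted p under 0.05 by limma). An effect of the construct on the change with time was therefore not detected.

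Over all 78 members, limma called 0 between weeks in vector clones at 0 nM, where 0.907% of genes passed. At an unadjusted p under 0.05, 2 members were higher and 1 lower (3.85%), against 9.48% of all genes. The smallest p there was that of MRPL33, whose 3 libraries held 241, 244 and 204 FPKM in week 12 but 137, 164 and 155 in week 29 (−0.59 ± 0.17, adjusted p = 0.141). These libraries did not overlap. MRPL2, the counterpart of L2, had the next smallest p (0.60 ± 0.23, adjusted p = 0.355). In vector clones at 100 nM limma called 0 members, with a median change of 0.19 and 15 higher (19.2%) and 0 lower at an unadjusted p under 0.05, against 7.08% and 7.46% of all genes. Without replicate 3 of vector clones at 100 nM in week 29 those 15 became 2, and without replicate 2 of week 12 they became 5. The smallest p values were those of MRPS35 (0.56 ± 0.16, adjusted p = 0.148) and MRPS36 (0.60 ± 0.19, adjusted p = 0.197). Without replicate 2 of vector clones at 100 nM and week 29, limma called 1 member, higher.

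In miR-186 clones at 0 nM, MRPL15 rose between week 12 and week 29 and no other member passed, while 1.57% of genes tested rose. Its FPKM were 81.6, 74.5 and 92.9 at week 12 and 122, 133 and 131 at week 29, without overlap (0.64 ± 0.17, adjusted p = 0.0477, limma). With MRPL15, 22 members (28.2%) were higher and 1 lower at an unadjusted p under 0.05, against 14.0% and 10.7% of all genes, and the members' median change was 0.18, against 0.06 over all genes. Leaving out replicate 3 of the week 12 group gave 6 members, all higher, and leaving out any other library of these groups gave 0. MRPL15 rose at both doses in miR-186 clones. These comparisons share no library, but they share the clonal lines and the fit and are not independent. With the correction for GC content MRPL15 no longer passed at 0 nM. In vector clones at 100 nM it stood at 0.51 ± 0.17 (adjusted p = 0.208, limma).

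Arsenic at week 12 in vector clones went with lower levels of 6 members. By limma 0 members rose and MRPS36, MRPL33, MRPL42, MRPL50, MRPL47 and MRPS28 fell, against 0.731% of all genes tested that fell. MRPL33, the counterpart of L33, stood at 241, 244 and 204 FPKM without iAs and at 128, 119 and 160 FPKM with it, a change of −0.77 ± 0.17 (adjusted p = 0.0443, limma). MRPL42 and MRPL50, large-subunit proteins without a bacterial counterpart, moved alike. MRPL42 went from 62.0, 68.4 and 62.8 FPKM to 35.4, 30.7 and 37.2 FPKM (−0.90 ± 0.20, adjusted p = 0.0443, limma). MRPL50 went from 22.6, 29.0 and 22.5 FPKM to 13.6, 12.3 and 13 FPKM (−0.89 ± 0.21, adjusted p = 0.0479, limma).

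MRPL47 fell from 77.4, 84.7 and 82.1 FPKM to 45.1, 37.6 and 58.7 FPKM (−0.81 ± 0.20, adjusted p = 0.0483, limma). MRPS28 fell from 60.7, 69.2 and 59.9 FPKM to 46.0, 34.9 and 38.1 FPKM (−0.67 ± 0.17, adjusted p = 0.0496, limma). MRPS36 carries a ribosomal symbol but is known today as a subunit of the 2-oxoglutarate dehydrogenase complex of the citric acid cycle, also named KGD4. It fell from 42.0, 45.5 and 41.6 FPKM to 21.3, 21.1 and 28.2 FPKM (−0.87 ± 0.19, adjusted p = 0.0422, limma). In all 6 genes every treated library lay below every untreated one. The members' median change was −0.24, 28 members (35.9%) were lower and 6 (7.69%) higher at an unadjusted p under 0.05, against 13.7% and 15.6% of all genes. In addition, 31 members lay wholly lower and 7 wholly higher, against 17.7% and 19.5% of all genes tested.

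All 6 calls lay near the threshold, and leaving out any single library of either group, or fitting only these groups, gave 0 calls. A correction for GC content gave 0 as well, with 31 members lower and 0 higher at an unadjusted p under 0.05 and a smallest adjusted p of 0.199. MRPL47 and MRPS28, 2 of these 6, were also among the 25 of 78 members that rose with time in miR-186 clones at 100 nM, about the same share as of all members. With the replicate number as a block limma called 20 members, all lower, and not every number passed the check of pairing in this comparison.

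In the other groups arsenic changed no member past the threshold. In miR-186 clones at week 12 limma called 0 (0.0% of genes tested), with a median change of −0.20 and 16 members (20.5%) lower and 0 higher at an unadjusted p under 0.05, against 5.74% and 5.21% of all genes. Without replicate 2 of the libraries at 100 nM, the 16 became 0 and the median −0.11. The smallest p values were those of MRPS22 (−0.57 ± 0.18) and MRPL47 (−0.60 ± 0.20), both with an adjusted p of 0.348. MRPL47 stood there at 55.2, 59.8 and 55.9 FPKM at 0 nM and at 41.6, 26.8 and 46.6 FPKM at 100 nM, without overlap. At week 29 limma called 0 members in vector clones (0.0% of genes tested) and 0 in miR-186 clones (0.0%). At an unadjusted p under 0.05 there were 2 lower in vector clones (2.56%, against 1.95% of all genes), MRPS33 (−0.46 ± 0.17) and MRPL34 (−0.42 ± 0.15), and 0 in miR-186 clones, where MRPS17 (−0.25 ± 0.15) had the smallest p. The members' medians at week 29 were −0.09 and 0.05.

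The response to arsenic was compared between groups as a difference of effects. Between constructs limma called 0 members at week 12 (0.0% of genes tested) and 0 at week 29 (0.0%), and between weeks 0 in vector clones (0.0%) and 0 in miR-186 clones (0.0%). At an unadjusted p under 0.05 these held 2, 1, 6 and 1 members (2.56%, 1.28%, 7.69% and 1.28%), against 2.96%, 1.91%, 7.44% and 3.08% of all genes in either direction, so these shares of members were near or below those of all genes. Between weeks in vector clones MRPS36 had the smallest p, and its change with iAs was 0.80 ± 0.28 higher at week 29 than at week 12 (adjusted p = 0.656, limma). The values for MRPL33 and MRPL47 were 0.68 ± 0.25 and 0.69 ± 0.28. The 6 members that fell at week 12 were therefore not shown to respond differently at week 29, where all 6 lay below 0 with a median of −0.21.

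Between constructs at 0 nM and week 12, MRPL33 was lower in miR-186 clones and no other member passed, with 2.02% of genes tested lower. Its FPKM were 148, 146 and 141 in the former and 241, 244 and 204 in vector clones, a change of −0.65 ± 0.17 (adjusted p = 0.0424, limma). The call was lost when any single library of the groups was left out. The vector libraries at 0 nM and week 12 were the 3 highest of all 24 for MRPL33, and the comparisons of iAs at week 12, of week without iAs and of construct described for MRPL33 all share them. Members lower and higher at an unadjusted p under 0.05 numbered 13 (16.7%) and 0, against 11.8% and 8.29% of all genes, and the median was −0.20, against −0.03 over all genes.

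In the other comparisons of constructs limma called 0 members: at 0 nM and week 29 (2.86% of genes tested passed), at 100 nM and week 12 (2.02%) and at 100 nM and week 29 (0.864%). At an unadjusted p under 0.05 there were 6, 7 and 3 members (7.69%, 8.97% and 3.85%), below the 19.9%, 14.5% and 14.5% of all genes. MRPS34, a small-subunit protein, had the smallest p at 100 nM and week 12, with 23.8, 26.6 and 24 FPKM in miR-186 clones against 35.7, 42.7 and 70.1 FPKM in vector clones (−0.93 ± 0.26, adjusted p = 0.0757, limma). Its libraries did not overlap, and with the correction for GC content it passed (−0.74, adjusted p = 0.00213, limma). At 0 nM and week 29 it stood at −0.81 ± 0.26 (adjusted p = 0.0977). The 121 tested genes within 2 Mb of MRPS34 had median differences of −0.44 and −0.49 in these comparisons, with 4 and 8 past the threshold, and the part of the neighbourhood in the value of MRPS34 was not tested. MRPL46, the gene with the next smallest p at 100 nM and week 12, was at −0.50 ± 0.17 (adjusted p = 0.148). Leaving out replicate 3 of miR-186 clones at 100 nM gave 1 call, lower, at week 12, and likewise 1 call, higher, at week 29.

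A property that moved with the members' changes was the GC content of their transcripts, which ran from 35.0% to 72.0% with a median of 49.2%, near the 48.7% of all genes tested. For iAs in vector clones at week 12, the correlation of GC content with change across the 78 members was r = 0.85 (rho = 0.83), and for week in miR-186 clones at 100 nM it was r = −0.71 (rho = −0.69). Across 14208 genes tested the values were 0.73 and −0.55. These are descriptions across genes measured in the same libraries, which are not independent. The 6 members that fell with iAs were all in the 39 of lower GC content, as were 19 of the 25 that rose with time, leaving 6 of 39 in the GC-rich part. The medians of the change with time were 0.52 in the GC-poor part and 0.17 in the GC-rich part.

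With each library corrected for GC content, the rise with time was called by limma in 18 members and the median was 0.40. Over all genes that fit called 340 of 14208 higher and 353 lower. Of the 18 members, 14 were among the 25 and MRPL12, MRPL41, MRPS12 and MRPS34 were added. The 11 that no longer passed were MRPL1, MRPL9, MRPL22, MRPL39, MRPL45, MRPL46, MRPS9, MRPS10, MRPS18C, MRPS28 and MRPS33. MRPL47 stayed past the threshold at 0.70 (adjusted p = 0.0120), MRPL15 at 0.69 (adjusted p = 0.0119) and MRPL3 at 0.59 (adjusted p = 0.0266). Without replicate 2 of week 12 the corrected fit also called 0, with 28 higher and 0 lower at an unadjusted p under 0.05. In this comparison all 3 same-numbered pairs of libraries deviated together. With the replicate number as a block limma called 28 members, among them all 25, and 13 without replicate 2. Over all genes the block on all libraries called 1759 of 14228 higher and 1219 lower. With the block and the GC correction together limma called 32 members.

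**Figure D3:**
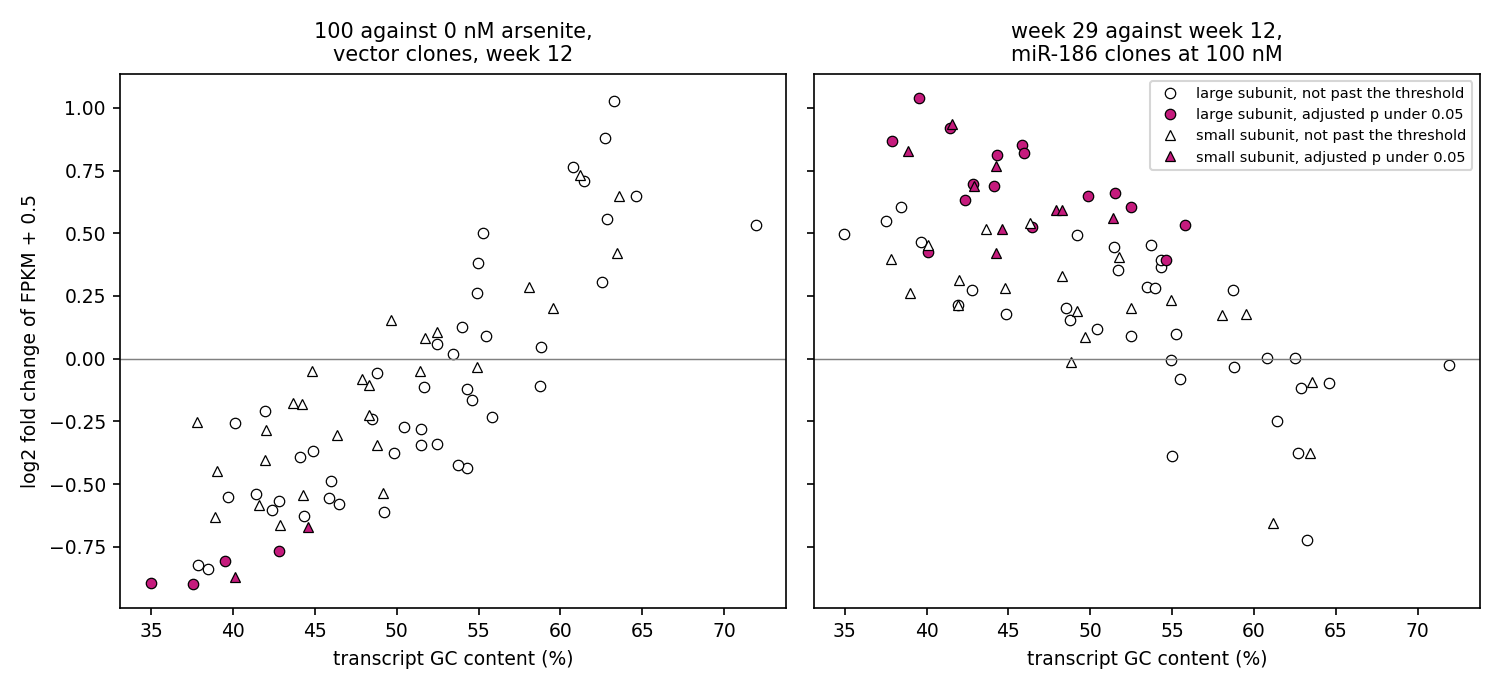
Log2 change of each of the 78 members against the GC content of its transcripts (percent), for iAs in vector clones at week 12 (left) and for week 29 against week 12 in miR-186 clones at 100 nM (right). Circles are MRPL genes (large subunit by symbol) and triangles MRPS genes (small subunit by symbol), and filled points passed an adjusted p of 0.05. On the left the 6 filled points lie at the GC-poor end, and on the right 19 of the 25 filled points lie below the median GC content of 49.2%.

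The GC-rich members differed between libraries of the same group and also between groups. The 13 members of highest GC content, from MRPL43 at 58.8% to MRPL41 at 72.0%, had a median deviation of 1.03 from their means in replicate 3 of vector clones at 100 nM and week 12. In replicates 1 and 2 of that group the values were −0.07 and 0.33. They were at −0.80 in replicate 1 of miR-186 clones at 100 nM in week 29, against 0.34 and 0.12 in the other 2 replicates, and at −0.60 in replicate 3 of vector clones at 100 nM and week 29. MRPL4, the counterpart of L4, shows this spread: its FPKM were 6.45, 7.93 and 16.6 in the group with the highest library and 2.15, 8.04 and 6.68 in the group with the lowest. In other groups all 3 libraries lay on 1 side of the mean, at −0.39, −0.39 and −0.48 in miR-186 clones at 0 nM in week 29 and at −0.20, −0.21 and −0.12 in vector clones at 0 nM and week 12. The 13 members of lowest GC content, from MRPL50 to MRPS10, had their lowest value, −0.76, in replicate 2 of miR-186 clones at 100 nM in week 12.

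MRPL12, of the flexible stalk that recruits translation factors and also a binding partner of mitochondrial RNA polymerase, belongs to the GC-rich members. In miR-186 clones at 100 nM its FPKM were 18.8, 19.7 and 21.7 in week 12 and 9.36, 25.3 and 27.3 in week 29. The replicates of week 29 lay on either side of week 12, and the change was −0.10 ± 0.34 (adjusted p = 0.862, limma). With the correction for GC content the direction turned and MRPL12 passed, at 0.63 (adjusted p = 0.0233, limma), and without replicate 1 of week 29 the uncorrected change was 0.38 (adjusted p = 0.460). MRPL41 was at 1.35, 1.35 and 1.69 FPKM and then at 0.521, 2.23 and 2.05 FPKM in the same groups, a change of −0.02 ± 0.42 that became 1.02 with the correction (adjusted p = 0.0130, limma).

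**Figure D4:**
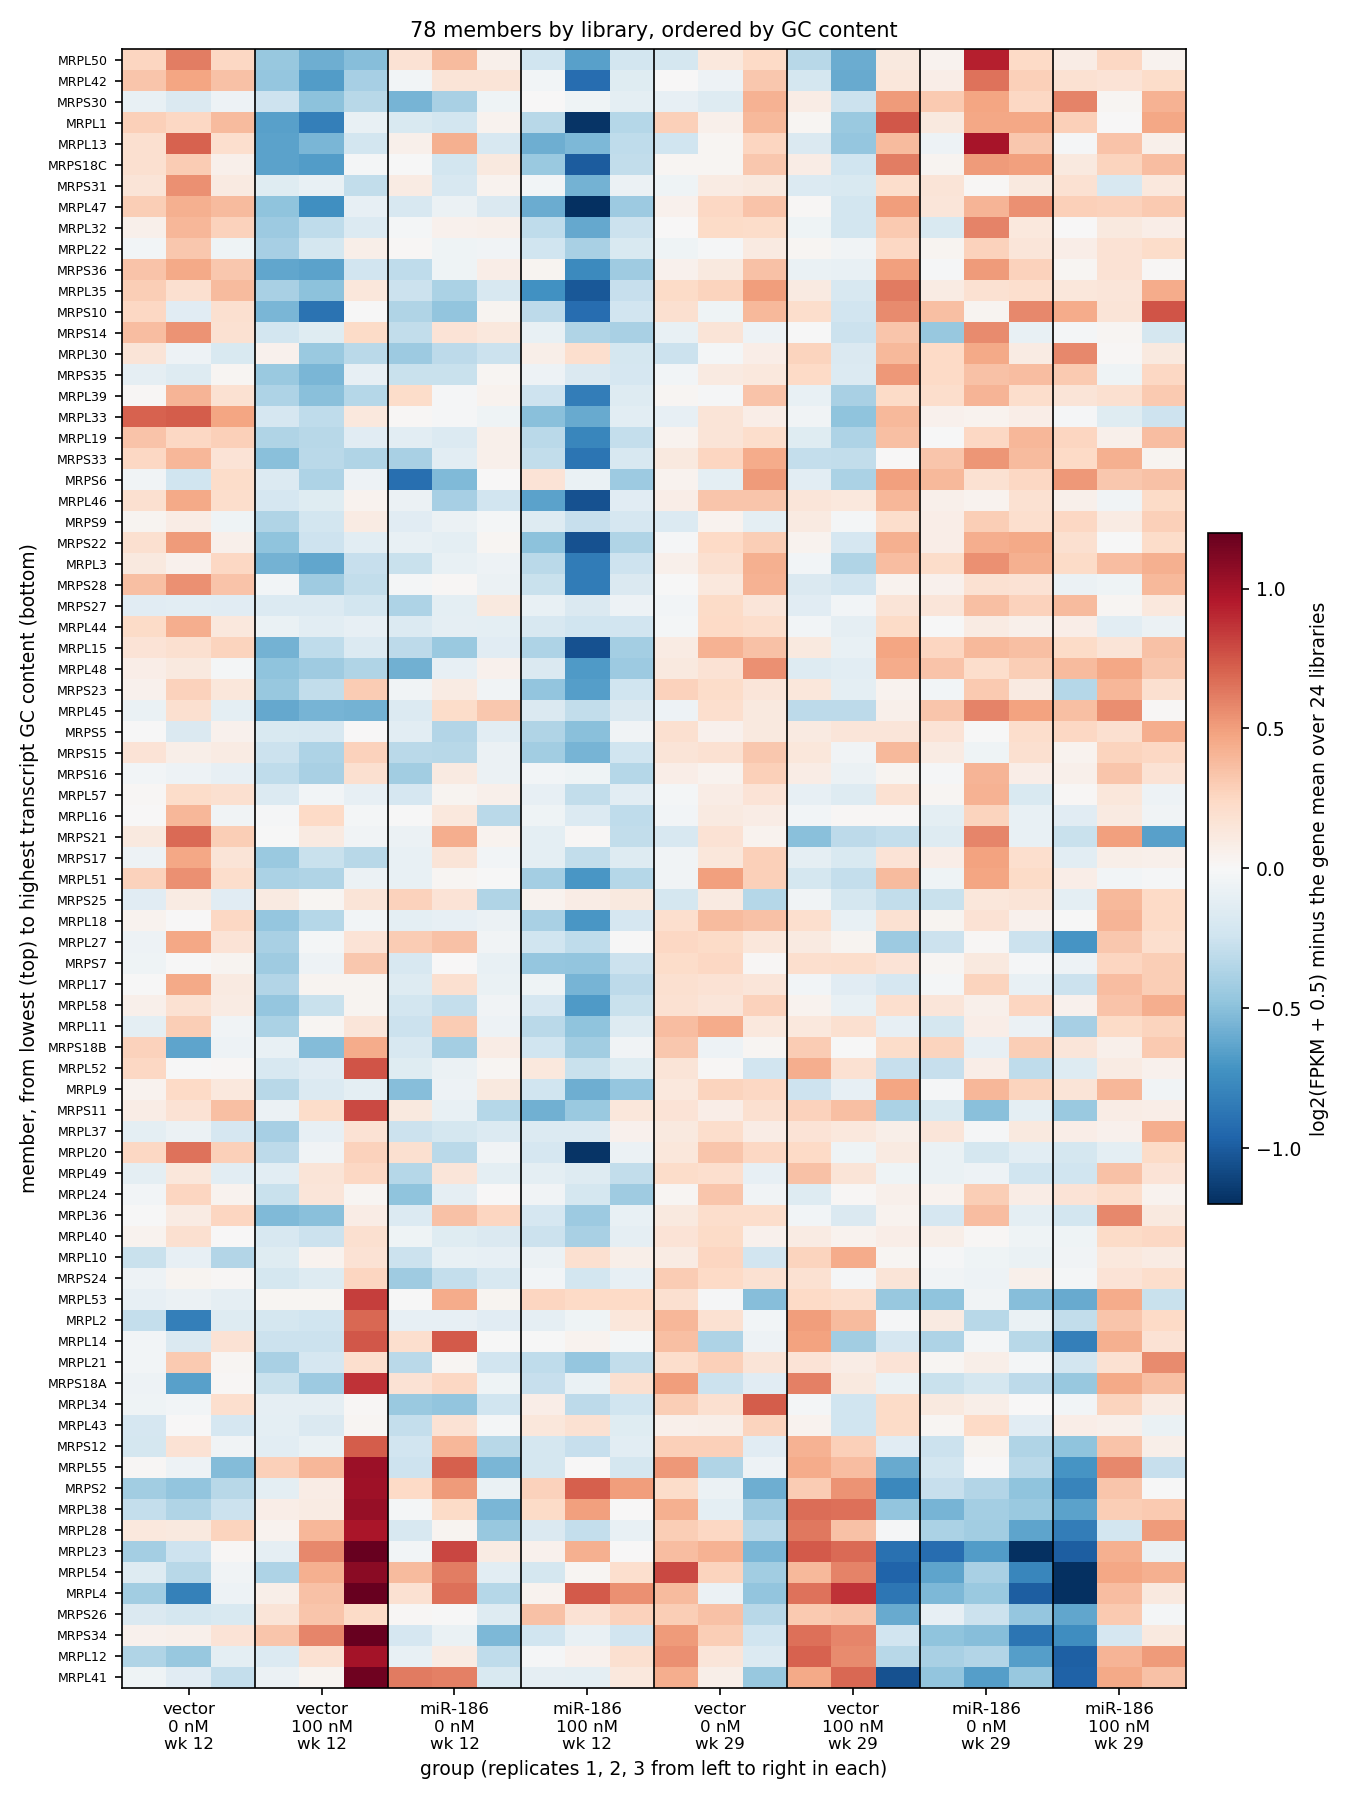
Log2(FPKM + 0.5) of each member in each library, minus the gene's mean over the 24 libraries (colour, limited to −1.2 to 1.2), with members ordered from the lowest transcript GC content at the top to the highest at the bottom and libraries by group. Replicate 2 of miR-186 clones at 100 nM in week 12 is low in the upper part, and replicate 3 of vector clones at 100 nM and week 12 is high in the lowest rows.

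Some members lie where neighbouring genes differed between constructs. MRPL45 is on chromosome 17 (38297023 to 38323218, plus strand), and the 56 tested genes within 2 Mb of it had median differences between miR-186 and vector clones of 1.00 and 0.63 at 0 nM (weeks 12 and 29) and of 0.75 and 0.52 at 100 nM. Of these neighbours 30, 16, 21 and 9 passed the test, in the same order. MRPL45 itself was at 0.13, 0.38, 0.37 and 0.50, in no case past the threshold. At 0 nM and week 29 it stood at 82.1, 98.7 and 91.2 FPKM in miR-186 clones and at 62.4, 75.0 and 70.8 FPKM in vector clones, without overlap (0.38 ± 0.15, adjusted p = 0.169, limma). Its pseudogene MRPL45P2, also on chromosome 17, was listed at 10.2 FPKM, so reads could have been split between the copies.

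MRPL23 (chromosome 11, 1947278 to 1984522, plus strand) lies beside H19, an imprinted noncoding RNA. Without iAs, H19 averaged 38 ± 9.40 FPKM in vector and 4.38 ± 2.85 FPKM in miR-186 clones in week 12, and 40.4 ± 25.4 against 6.51 ± 1.90 FPKM in week 29 (SD, n = 3). The libraries of MRPL23 overlapped in week 12: vector clones held 2.35, 2.67 and 3.32 FPKM, and miR-186 clones 3.18, 6.08 and 3.54. In week 29 vector clones held 4.39, 4.55 and 2.08 FPKM, and miR-186 clones 1.51, 1.88 and 1.10. Those libraries did not overlap, but the change of −1.02 ± 0.44 did not pass (adjusted p = 0.205, limma). The 63 tested genes within 2 Mb of MRPL23 had median differences of 0.26 in week 12 and −0.49 in week 29, with 2 and 0 past the threshold. MRPL23 is GC-rich (62.7%), and in week 29 the correlation of GC content with this difference across the 78 members was r = −0.83. The part of GC content or of the neighbourhood in the value of MRPL23 was not tested. MRPL46 and MRPS11 on chromosome 15 start head to head, with 34 bases between the 2 genes. Their log2 levels had a correlation of r = 0.42 over the 24 libraries, a description of libraries that share depth and GC pattern.

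The motif letters shown above were also counted by the members' change with time in miR-186 clones at 100 nM. Of 21 rising members with a start window 9 held CCGGAAG and 3 held AAGATGGCG, against 20 and 10 of the other 48 members. The median changes of members with and without CCGGAAG were 0.26 and 0.38, and those with and without AAGATGGCG were 0.41 and 0.28. Of the 4 members with a window that fell with iAs in vector clones, 2 held each set of letters. No test was made on these counts.

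The rest of the mitochondrial translation system was taken from lists of 9 kinds and is given for the change with time in miR-186 clones at 100 nM. Over all genes tested, 7.11% rose and 5.07% fell there. Of 27 assembly factors of the mitochondrial ribosome 7 rose and 0 fell, with a median of 0.24. Among them were MRM2 (0.59 ± 0.12), which methylates the large ribosomal RNA, METTL15 (0.66 ± 0.16), which methylates the small one, MALSU1 (0.62 ± 0.13), a factor bound to the large subunit, and the GTPase GTPBP10 (0.89 ± 0.22). Of 15 translation factors 5 rose and 0 fell, with a median of 0.44: the initiation factor MTIF2 (0.89 ± 0.20), the recycling factor MRRF (0.61 ± 0.14), the rescue factor MTRFR (0.67 ± 0.19), the activator of COX1 translation TACO1 (0.49 ± 0.14) and the messenger-binding LRPPRC (0.47 ± 0.14).

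Of 17 mitochondrial aminoacyl-tRNA synthetases 2 rose, NARS2 (0.73 ± 0.16) and HARS2 (0.56 ± 0.14), and 0 fell. Of 10 genes of mitochondrial transcription and DNA upkeep 3 rose and 2 fell. Those that rose were SSBP1, the single-strand DNA binding protein (0.71 ± 0.13), the packaging factor TFAM (0.67 ± 0.17) and the elongation factor TEFM (0.63 ± 0.16). Those that fell were the RNA polymerase POLRMT (−1.40 ± 0.42) and the DNA polymerase POLG (−0.65 ± 0.20). SSBP1 and TFAM also fell with iAs in vector clones at week 12 (−0.57 ± 0.13 and −0.68 ± 0.17), as did FASTKD2, a factor needed for the large ribosomal RNA (−0.71 ± 0.16). Their adjusted p values in limma were 0.0479, 0.0483 and 0.0423, near the threshold, and 0.731% of all genes tested fell there. Whether these 3 calls depend on single libraries or GC content was not examined. Of 6 mitochondrial ribosome subunits without an MRPL or MRPS symbol, DAP3 among them, 0 passed, with 2 higher at an unadjusted p under 0.05 in limma and a median of 0.20.

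Of the messages that this ribosome translates, 2 of 13 fell. All 13 messages of the mitochondrial genome lay below 0 between week 12 and week 29, with a median of −0.60, and MT-CO1 (−0.88 ± 0.26) and MT-CO2 (−0.69 ± 0.20), which encode subunits of cytochrome c oxidase, fell past the threshold. Another 7 were lower at an unadjusted p under 0.05. These RNAs are far more abundant than the members, with a mean of 16731 FPKM for MT-CO1 and 23451 FPKM for MT-CO2. Of 78 nuclear-encoded subunits of the respiratory chain and ATP synthase 9 rose and 0 fell (median 0.29), and of 84 cytosolic ribosomal proteins 6 rose and 1 fell (median 0.27). The share of cytosolic ribosomal proteins that rose was about that of all genes tested, 7.11%. Of 9 tested regulators of nuclear genes for mitochondria, GABPB1, the partner of GABPA, rose (0.44 ± 0.14), and MYC (−1.33 ± 0.24) and PPRC1 (−0.86 ± 0.23) fell. Without replicate 2 of week 12 limma called 0 genes in any of these 9 lists, with 8 assembly factors, 5 translation factors and 11 respiratory chain subunits higher, and 4 mitochondrial messages lower, at an unadjusted p under 0.05. Of all 14228 genes, 1477 were higher and 1165 lower at that p in limma. With the GC correction 7 assembly factors rose (median 0.35), 4 translation factors (0.15), 1 gene of transcription and DNA upkeep (0.09), 4 respiratory chain subunits (0.18) and 0 cytosolic ribosomal proteins (0.23), with 18 of the last higher and 1 lower at an unadjusted p under 0.05. The corrected fit called 7 of the 13 mitochondrial messages lower (median −0.83), and 0 of 9 regulators higher and 1 lower. Over all 14208 genes it called 340 higher and 353 lower. With the replicate number as a block 8 assembly factors, 9 translation factors, 4 synthetases, 12 cytosolic ribosomal proteins and 17 respiratory chain subunits rose, and 4 mitochondrial messages fell. In the same fit 1 cytosolic ribosomal protein and 1 respiratory chain subunit fell. Of the genes of transcription and DNA upkeep 3 rose and 2 fell, and of the regulators 1 rose and 2 fell. That block called 1759 of all 14228 genes higher and 1219 lower. The differences between these lists and the members were not tested.

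**Figure D5:**
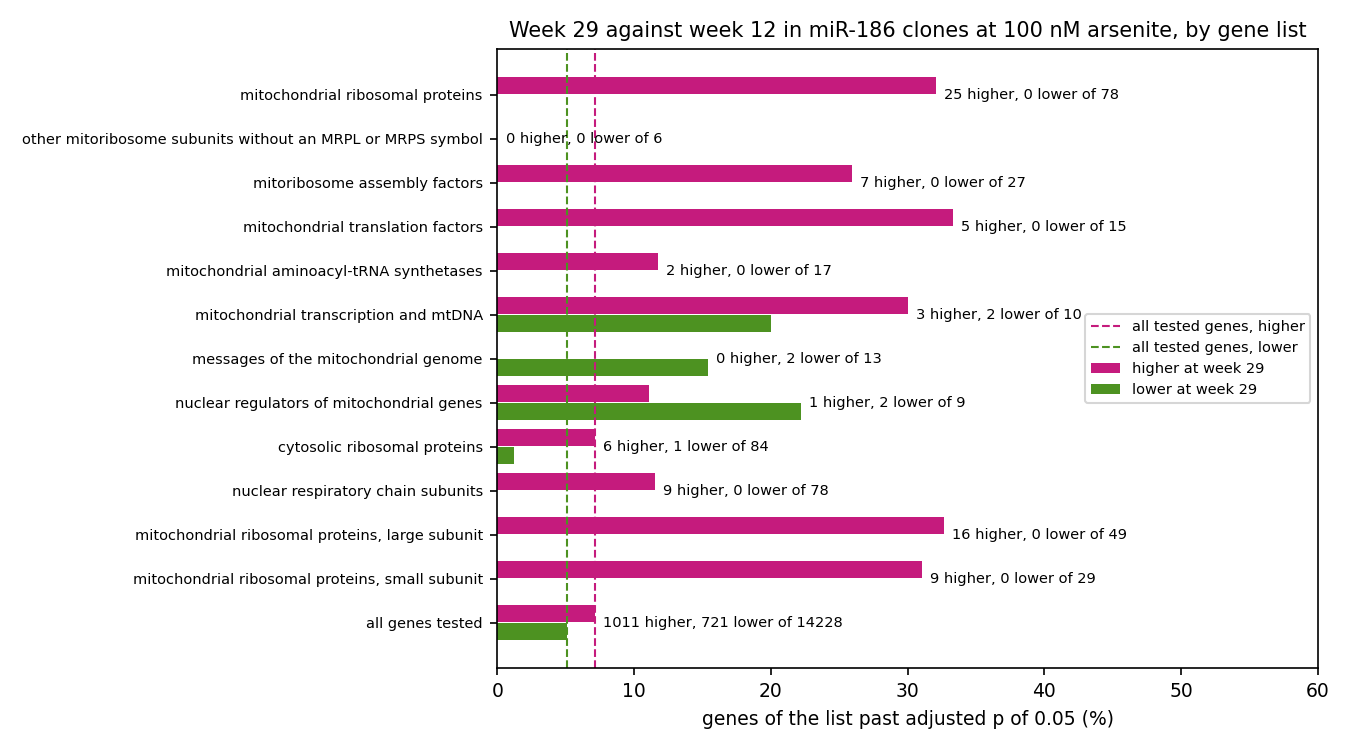
Percentage of each gene list that was higher (upper bars) or lower (lower bars) at week 29 than at week 12 in miR-186 clones at 100 nM, at an adjusted p under 0.05, with the counts beside the bars; dashed lines mark the 7.11% higher and 5.07% lower of all genes tested. The members stand at 25 higher and 0 lower of 78, and the messages of the mitochondrial genome at 0 higher and 2 lower of 13.

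Markers were read to check the labelled cell type. All 9 keratinocyte markers, KRT5, KRT14 and TP63 among them, had means over 1 FPKM, and their sum ran from 1194 to 4388 FPKM. Sums of 6 fibroblast markers ran from 1.75 to 95.6 FPKM, of 5 melanocyte markers from 0.819 to 2.37 (TYR at 0), of 5 immune markers from 1.13 to 7.48 and of 4 endothelial markers from 4.04 to 20.9 FPKM. In miR-186 clones at 100 nM the keratinocyte sum was 1757 to 2356 FPKM at week 12 and 1226 to 2161 FPKM at week 29, and the fibroblast sum 3.49 to 22.9 and 1.75 to 3.80 FPKM. The part of these differences in the members' change was not tested. Of the 25 members that rose there, 7 overlap another gene with a mean of at least 1 FPKM, MRPL47 with ACTL6A and MRPS22 with COPB2 on the opposite strand among them, and MRPL33 overlaps BABAM2 on its own strand. The strand setting of the counting is not given in the sources used here, so reads of such pairs may not be told apart.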

How the data were processed

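Total RNA was made into libraries with a stranded mRNA kit and sequenced in 1 pool, per the labels' protocols. The submitters' processing notes name STAR 2.6.0c, Cuffdiff 2.2.1 and the build hg38 (GRCh38); annotation release and strand setting are not given in the sources used here. The authors' deposited FPKM of 24 libraries were used as they stand (sums of 712797 to 905683 per library). Read counts were not used, so absolute depth is unknown; relative depth, a rough estimate from the low end of non-zero FPKM multiplied by length in genes of a single transcript, ran from 0.825 to 1.08 of the median library.

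Values were log2(FPKM + 0.5) of the 14228 genes averaging 0.5 FPKM or more; fold changes on this scale understate changes of low genes. limma 3.58.1 (R 4.3.3; trend, robust) was fitted to all 8 groups together, with Benjamini-Hochberg adjustment over all genes in each of 17 comparisons, 12 between 2 groups and 5 differences of effects; 1 of these (the week effect at 100 nM between constructs) was added after the data were seen. The method was tested on simulated data whose noise was drawn independently for each gene and library. Those data held no GC or depth pattern and no outlying library, so the test does not cover such conditions. Alternatives for the gene lists other than the members were added after seeing the data. GENCODE 29 gave positions and transcript GC content, and the GC correction fits a natural spline (5 degrees of freedom) to each library, set by genes over 1.5 FPKM. Start windows are from RefSeq. Named genes are up to 10 members with the smallest p per comparison (2 where none passed) and the 3 highest, lowest, most and least variable. Some were named by position or role, and up to 4 were taken from each other list. Other members, and other genes of those lists, past the threshold are named without this rule, after their values were seen. The members and lists were chosen with earlier results of these data known. The 13 members at each end of GC content were chosen after their values were seen.

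Replicates are called independent by the labels. Same-numbered libraries deviated together from their group means (every r over 0.1 across genes) in 4 of 12 comparisons: iAs in vector clones at week 29, constructs at 0 nM and week 29, and week in vector clones at 0 nM and in miR-186 clones at 100 nM (0.34, 0.41 and 0.39). In the 1 between constructs the lines differ, so the number cannot stand for a shared clone there. In the others it could be read as a pairing, from the data and not the labels. For week in vector clones at 0 nM, replicate 1 had r = 0.31 with its own number and 0.32 with another number. What else same-numbered libraries share was not tested. The fit reported used no replicate block in any comparison. The block was an alternative over all 24 libraries, and it also joined equal numbers of vector and miR-186 clones, which are different lines. Each library's highest correlation with another was 0.966 to 0.988, and 0 pairs were identical.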

Additional observations from a re-analysis of the deposited data

How the results depend on the processing

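Of 1433 values of single members under an alternative, 24 changed direction, 1069 kept direction and side of the threshold, 333 lost and 7 gained it; all 24 concern MRPL12, MRPL41 and MRPS18A for week in miR-186 clones at 100 nM, none called by the fit reported. MRPL12 (−0.10) became 0.63 with the GC correction, with or without the replicate block, and MRPL41 (−0.02) 1.02; a pseudocount of 1 gave MRPL41 0.0059. Left-out libraries gave −0.37 to 0.38 for MRPL12 and −0.28 to 0.43 for MRPL41. With the GC correction, leaving out replicates 1, 2 and 3 of week 12 gave MRPL12 0.69, 0.49 and 0.72 and MRPL41 1.13, 0.79 and 1.14, and of week 29 gave 0.80, 0.63 and 0.47 and 0.95, 1.10 and 1.00. With the replicate block, leaving out replicate 1 of week 29 gave MRPL12 0.40 and MRPL41 0.49, replicate 3 of week 12 gave MRPL41 0.13, and replicate 2 of week 29 gave MRPS18A −0.077. Further, all 68 medians moved by less than the spread. Of 297 counts of members past the threshold 52 moved by over 1.5 times, and the cause was not tested. For week in miR-186 clones at 100 nM (25), no filter on low values gave 14, a fit on only the compared groups 0, and leaving out single libraries 0 to 24. With the GC correction, added after seeing the data, leaving out replicates 1 and 2 of week 12 gave 11 and 0, and replicates 1, 2 and 3 of week 29 gave 16, 12 and 3; with the replicate block, leaving out replicate 2 of week 12 gave 13. For iAs in vector clones at week 12 (6), a mean of at least 2 FPKM gave 10 and the replicate block 20; no filter, the GC correction with or without the block, only the compared groups and every left-out library gave 0. For constructs at 0 nM and week 12 (1), the replicate block gave 5 and the GC correction 3 with or without the block; no filter, only the compared groups and every left-out library gave 0. For week in miR-186 clones at 0 nM (1), the replicate block gave 9, the block with GC correction 3, left-out libraries 0 to 6, and no filter, median ratio scaling, the GC correction and only the compared groups 0. In comparisons with 0 members, constructs at 100 nM and week 12 gave 1 with the GC correction, 2 with the block added and 0 to 1 with left-out libraries; at week 29 left-out libraries gave 0 to 1. Week in vector clones at 100 nM gave 2 with the replicate block and 0 to 1 with left-out libraries. In the 4 comparisons where same-numbered libraries deviated together, the block on all 24 libraries without another change moved no count of members by over 1.5 times. For week in miR-186 clones at 100 nM the block gave 28, and with the GC correction 32 against 18 without the block. With 3 libraries a group and no read counts, changes near the threshold could not be resolved further.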
